A study of Mus musculus with 6 samples.

Results

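SR proteins and heterogeneous nuclear ribonucleoproteins (hnRNPs) are the main RNA-binding proteins that steer the choice of splice sites. Their genes were described here in libraries labelled as regulatory T cells (Tregs, CD4+ T cells that express Foxp3) from skin and from skin-draining lymph nodes (SDLNs) of neonatal mice. Members were all protein-coding genes of GENCODE M21 whose symbols start with Srsf or Hnrnp, without the symbols that carry -ps. The rule found 31 of the 49315 genes in the count table, 11 SR protein genes and 20 hnRNP genes. It left out the processed pseudogenes Hnrnpa1l2-ps and Hnrnpa1l2-ps2, which had at most 11 counts in any library.

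Bulk RNA-seq was performed on 3 skin Treg and 3 SDLN Treg samples, all from P9 mice of the Foxp3-GFP genotype, which make a green fluorescent protein where Foxp3 is expressed. The labels give no treatment. A Foxp3 line with a joint DTR/GFP allele (diphtheria toxin receptor and GFP) is named in the study's methods, which do not say whether these mice carried it. Each sample pooled cells of 3 mice, enriched for CD45+ cells on magnetic beads and sorted as live CD45+ CD4+ Foxp3-EGFP+ cells. Skin was digested with enzymes. The labels give tissue as Skin for the lymph node samples too, so groups were read from the titles, and libraries are named by tissue and by the letter of their column. The comparison sets the libraries labelled skin Treg against those labelled LN Treg, called skin and SDLN libraries here.

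An SR protein has RNA recognition motifs and a tail rich in arginine and serine. It typically binds enhancer sequences in exons and helps the U1 and U2 snRNPs to recognise the neighbouring splice sites. hnRNPs coat nascent transcripts and often, though not always, repress nearby splice sites. Many genes of both families limit their own expression by splicing in a "poison" exon that sends the transcript to nonsense-mediated decay (NMD). In T cells both families take part in the exon choice of Ptprc (CD45), which changes on activation. GENCODE M21 annotates an NMD transcript for 9 of the 11 SR protein genes (81.8%) and 10 of the 20 hnRNP genes (50%), against 3349 of 11185 protein-coding genes tested (29.9%). Gene-level counts do not separate such transcripts from those that encode protein.

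Depth differed widely between the groups. SDLN libraries held 47243498 to 116158706 counts and skin libraries 3748669, 11741784 and 9033442 counts (A, B and C). A count of 3 or fewer was called at the floor, corresponding in skin A, B and C to 0.8, 0.255 and 0.332 counts-per-million (CPM, scaled to all counts of a library), and to at most 0.0635 CPM in SDLN. Floors cover counting error only, while the intervals of fold changes also take in the spread between libraries. Of 13572 genes tested, 6142 were called lower in skin (45.3%) and 141 higher (1.04%). The spread between replicates was large, with a biological coefficient of variation of 1.43. Of the T cell and Treg markers, Foxp3 had 0, 330 and 1 counts in skin A, B and C and Cd4 had 0, 1861 and 2, so both were over the floor in skin B only and went against the label in skin A and C. Cd3e had no count in skin A. The other 6 of the 9 T cell and Treg markers were over the floor in all skin libraries, and Ctla4 was called higher in skin (edgeR adjusted p = 0.0447). Summed CPM of the 9 T cell and Treg markers was 4843 to 7185 in skin and 8104 to 8471 in SDLN. Summed CPM of 18 myeloid markers was 35106 to 61575 in skin and 443 to 779 in SDLN. Of the myeloid markers 17 were tested, of which 16 were called higher in skin and Itgam, at 0 counts in the skin libraries, lower. Summed CPM of 5 B cell markers (Cd79a, Cd79b, Ms4a1, Pax5 and Ighm) was 586 to 861 in skin and 1471 to 1708 in SDLN, and 3 of the 4 tested were called lower in skin. Summed CPM of 14 genes of the response to tissue digestion was 8107 to 22309 in skin and 3360 to 3850 in SDLN. Keratinocyte markers (6) summed to at most 50.7 CPM in any skin library and to 32.5 to 40.4 CPM in SDLN. Fibroblast markers (6) summed to at most 90.6 CPM in skin and to 1.44 to 7.56 CPM in SDLN. In skin B, Epcam was at 50.7, Col3a1 at 50.5 and Col1a2 at 37.0 CPM. Endothelial markers (5) summed to at most 25.9 CPM in skin and to 139 to 173 CPM in SDLN. Krt5, Krt14, Krt15, Pdgfra, Lum, Cldn5 and Emcn were at 0 in every library. These lists and the depth move with the tissue in every comparison that follows. The part of the marker lists in the results was not tested. For depth, all libraries were drawn down to 3748669 counts. There 1 SR protein gene (Srsf4, adjusted p = 0.011 in edgeR) and 0 hnRNP genes were called lower and 0 members higher. Drawing down leaves a count of 0 in skin at 0, so it does not show what depth did to such genes. In bulk samples fewer cells of a type and less RNA per cell cannot be told apart.

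The promoters of 3 genes that the results turn on are shown first. RefSeq windows of 300 bases, from 250 before to 50 after the annotated start (GRCm38.p6), were matched for 29 of the 31 members. Hnrnpll and Hnrnpul2 had no window. The windows of Srsf2, whose CPM was above the SDLN range in each skin library, of Srsf4, which had no count in skin, and of Hnrnpk, the most abundant member per length in SDLN, lie at chr11:116853045-116853344 (minus strand), chr4:131873387-131873686 (plus strand) and chr13:58402068-58402367 (minus strand). They are printed 5′ to 3′ on the strand of the gene, and capitals mark matches on either strand to the motifs named after them.
Srsf2: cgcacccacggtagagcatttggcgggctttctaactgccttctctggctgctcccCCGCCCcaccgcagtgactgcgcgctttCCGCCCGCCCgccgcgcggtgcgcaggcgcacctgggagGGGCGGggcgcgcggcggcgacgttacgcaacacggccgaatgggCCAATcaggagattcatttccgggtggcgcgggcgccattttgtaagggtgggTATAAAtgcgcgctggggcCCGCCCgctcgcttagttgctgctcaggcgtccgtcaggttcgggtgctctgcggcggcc
Srsf4: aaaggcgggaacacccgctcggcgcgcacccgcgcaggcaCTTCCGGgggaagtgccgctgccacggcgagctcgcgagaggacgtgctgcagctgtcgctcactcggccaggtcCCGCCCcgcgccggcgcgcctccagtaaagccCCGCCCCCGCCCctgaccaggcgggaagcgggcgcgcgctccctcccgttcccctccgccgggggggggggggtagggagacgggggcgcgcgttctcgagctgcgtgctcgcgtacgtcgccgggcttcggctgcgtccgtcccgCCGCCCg
Hnrnpk: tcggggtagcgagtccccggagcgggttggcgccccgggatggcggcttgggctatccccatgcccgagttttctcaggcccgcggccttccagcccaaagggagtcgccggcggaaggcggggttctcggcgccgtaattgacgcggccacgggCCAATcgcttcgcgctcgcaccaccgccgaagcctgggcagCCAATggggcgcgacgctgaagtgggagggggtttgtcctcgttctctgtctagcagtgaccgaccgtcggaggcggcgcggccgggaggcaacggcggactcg

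The motifs searched were the TATA box (TATAAA), the CCAAT box (CCAAT), the GC box (GGGCGG), the ETS core (CCGGAAG), the E-box (CACGTG) and the NRF1 core (GCGCATGC), and matches could overlap. The Srsf2 window held 1 TATA box, 1 CCAAT box and 5 GC boxes, some of which overlap. The Srsf4 window held 4 GC boxes and 1 ETS core, with no TATA or CCAAT box. The Hnrnpk window held 2 CCAAT boxes and none of the other motifs. These windows are rich in G and C, at 69.3% for Srsf2, 77.7% for Srsf4 and 70.7% for Hnrnpk. Median GC content was 69.0% over 11 SR protein windows and 61.7% over 18 hnRNP windows, against 52.7% over all 32851 windows. The median ratio of observed to chance CpG pairs was 0.952 and 1.03 in the families and 0.384 over all windows.

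A GC box stood in 10 of 11 SR protein and 13 of 18 hnRNP windows, against 35.7% of all windows. A CCAAT box stood in 4 of 11 and 12 of 18, against 37.4%. A TATA box stood in 2 of 11 and 2 of 18, against 13.6%. An ETS core stood in 4 and 2 windows, against 8.86%, an E-box in 0 and 4, against 7.15%, and an NRF1 core in 1 and 0, against 2.71%. A match describes the letters of the window, not a bound site.

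Few members passed the test between tissues, while single skin libraries differed from each other at most of them. Srsf4 was called lower in the libraries labelled skin Treg, and no SR protein or hnRNP gene was called higher. Of 31 members, 30 passed the filter on low counts and Srsf12 did not. The count of 1 lower among 30 stands beside 45.3% of all genes tested, and that of 0 higher beside 1.04%. The values for all genes tested, here and below for fold changes and overlap, were not matched for SDLN level. Of 13572 genes tested, 10186 were at 1 to 100 CPM in SDLN, against 11 of the 31 members. Without adjustment edgeR gave p under 0.05 to 2 members that were lower (Srsf4 and Hnrnpa2b1) and 1 that was higher (Srsf2). DESeq2 called Srsf2 higher, and limma voom called 0 members higher. The median log2 fold change, skin over SDLN, was -0.11 over SR protein genes and -0.77 over hnRNP genes, against -2.21 over all genes tested.

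The CPM ranges of skin and SDLN did not overlap for 5 of 30 members lower in skin (Srsf4, Srsf7, Hnrnpl, Hnrnpm and Hnrnpr) and for 1 higher (Srsf2). Over all genes tested, 53.6% did not overlap on the lower side and 2.39% on the higher side. The other 24 tested members had at least 1 skin library inside or on the far side of the SDLN range.

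**Figure D1:**
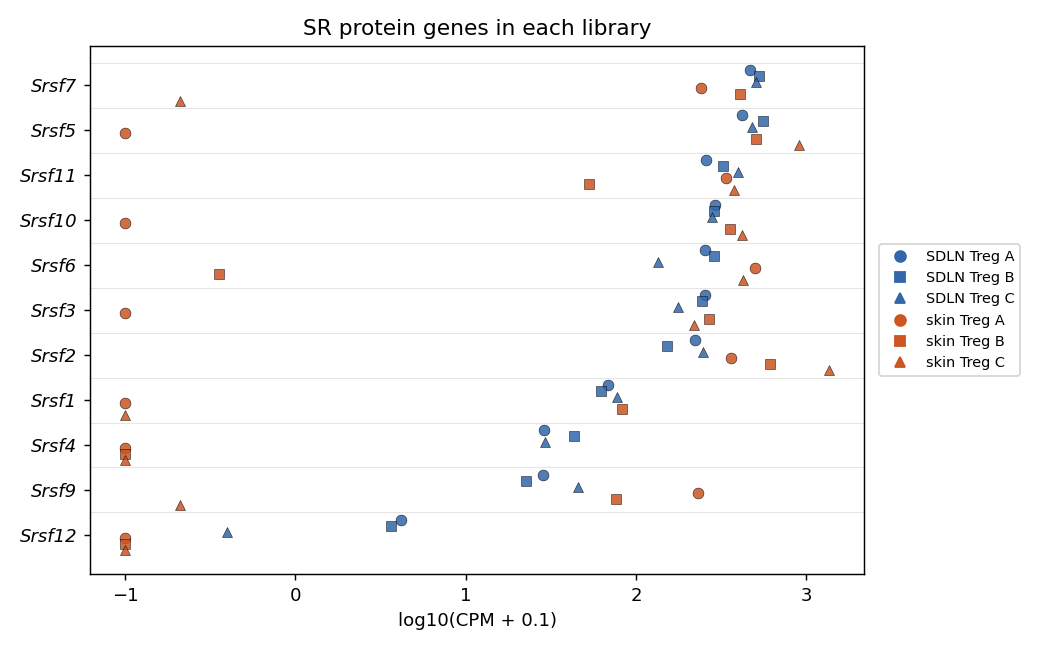
Level of each SR protein gene as log10(CPM + 0.1), 1 point per library, with SDLN libraries in blue and skin libraries in orange (circle A, square B, triangle C). Genes are ordered by SDLN mean. Points at -1 are counts of 0; the 3 SDLN points of a gene lie close together except for Srsf12, while Srsf4 and Srsf12 had no count in any skin library.

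Among the SR proteins, Srsf4 (chr4:131873617-131901706), a larger member with a long arginine-serine tail, was at 28.9, 43.0 and 29.1 CPM in SDLN A, B and C and at 0 counts in each of the 3 skin libraries. The groups did not overlap. Its SDLN mean of 33.6 ± 8.08 CPM (SD, n = 3) was 72.7-fold higher than the mean of the skin floors. The edgeR estimate was a log2 fold change of -13.51 (SE 1.27, adjusted p = 0.00351), whose size depends on the prior count. Srsf4 was called in 14 of 14 alternatives that tested it, with log2 fold changes between -13.76 and -8.88. All of them keep its 0 counts in skin, so this agreement does not test the call. The filter of at least 10 counts in every library left the gene out. Of all genes tested, 43.3% were over the floor in no skin library. Of those at 1 to 100 CPM in SDLN, 15%, 33.3% and 29.0% were over it in skin A, B and C. Its exons share 1532 bp with Gm12992 on the other strand, a transcript with at most 189 counts in any library.

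Srsf12, an atypical SR protein that can act against splicing by the classical ones, was the lowest of the family. It was at 4.05, 3.53 and 0.296 CPM in SDLN and at 0 counts in skin. Its SDLN mean was 5.67-fold higher than the mean of the skin floors, but SDLN C, with 14 counts, lay itself below the floors of skin A and C.

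Srsf2 (SC35; chr11:116849901-116853094), a classical SR protein that binds enhancers rich in C and G, was the member whose groups did not overlap on the higher side. Its level was 221, 152 and 248 CPM in SDLN A, B and C and 360, 611 and 1365 CPM in skin A, B and C. Mean levels of Srsf2 were 207 ± 49.1 CPM in SDLN and 778 ± 523 CPM in skin (SD, n = 3). The log2 fold change was 2.05 (SE 0.795, 95% interval 0.08 to 4.02, edgeR adjusted p = 0.0913). The gene missed the threshold there and passed it in 2 of 15 alternatives, with DESeq2 (adjusted p = 0.0176) and in edgeR without skin A (adjusted p = 0.018). Across the alternatives the adjusted p ran from 0.0176 to 0.272 and the log2 fold change from 1.00 (without skin C) to 2.29 (without skin A). The exons of Srsf2 share 460 bp with Mettl23 and 288 bp with Mfsd11, both on the other strand. Skin A held 1991 counts of Mfsd11 beside 1349 of Srsf2, whereas skin C held 0 beside 12327. Mettl23 had 0, 795 and 31 counts in skin. The strand setting of the counting is not given in the sources used here, so the share of such reads is uncertain.

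Srsf7 and Srsf5 were the SR protein genes with the most reads per length in SDLN, at 141 and 121 RPKM (CPM per kilobase of exon). Srsf7 (9G8), which also takes part in mRNA export, was at 469, 528 and 507 CPM in SDLN and at 241, 410 and 0.111 CPM in skin A, B and C. All skin values were below the SDLN range, and that of skin C was 1 count. The edgeR interval was nonetheless wide, at a log2 fold change of -1.34 (95% interval -5.94 to 3.27, adjusted p = 0.742). Srsf3, its close relative and the smallest SR protein, was at 176 to 254 CPM in SDLN and at 0, 268 and 218 CPM in skin. Its skin B and C values lay close to the SDLN range, and skin A had no count.

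Srsf5 and Srsf6 share the build of Srsf4, with a pair of RNA recognition motifs. Srsf5 was at 417, 555 and 479 CPM in SDLN and at 0, 505 and 905 CPM in skin A, B and C. The gene was thus absent from the counts of skin A and highest in skin C. Srsf6 showed the gap in another library, with 134 to 287 CPM in SDLN and 499, 0.255 and 427 CPM in skin. The 0.255 CPM in skin B were 3 counts, at the floor. Neither passed the edgeR test (adjusted p = 0.981 for Srsf5 and 0.947 for Srsf6).

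Srsf1 (ASF/SF2), the founding member of the family, was at 62.5 to 77.1 CPM in SDLN, 82.6 CPM in skin B and 0 counts in skin A and C. Its closest relative Srsf9 was high where Srsf1 was not in skin A, at 232 CPM. Srsf9 was at 76.7 CPM in skin B and 0.111 CPM (1 count) in skin C, with 22.5 to 45.8 CPM in SDLN. Srsf10, which acts as a repressor when dephosphorylated, was the steadiest member in SDLN, at 281 to 290 CPM with a coefficient of variation (CV) of 1.5%. In skin it was at 0, 355 and 420 CPM. Srsf11, a protein with an arginine-serine domain and a single recognition motif, was at 257, 323 and 396 CPM in SDLN and at 336, 52.7 and 377 CPM in skin A, B and C. It was over the floor in each skin library and its groups overlapped. With edgeR its log2 fold change was -0.36 (SE 0.865, adjusted p = 0.886), and 0.11 without skin B.

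**Figure D2:**
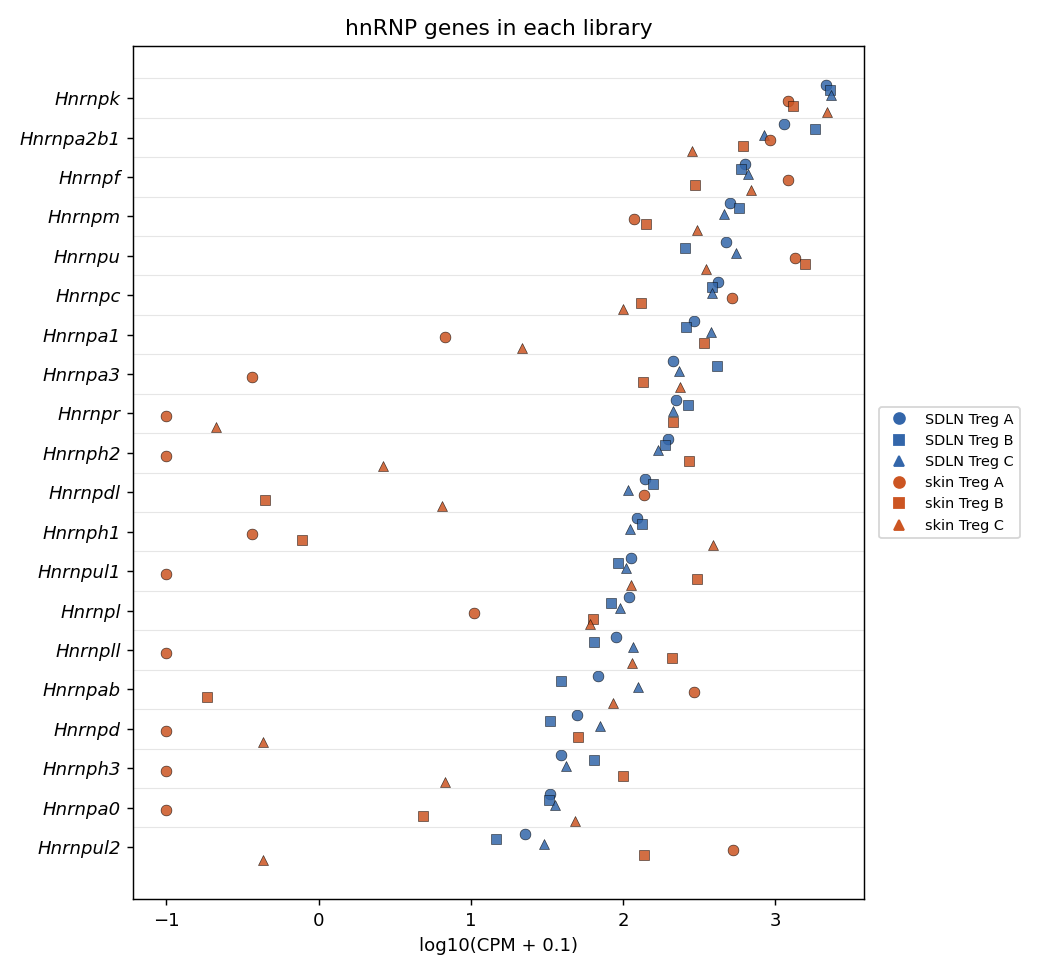
Level of each hnRNP gene as log10(CPM + 0.1), with the same colours and symbols (SDLN blue, skin orange; circle A, square B, triangle C), ordered by SDLN mean. The 6 points of Hnrnpk run from 1204 to 2329 CPM, whereas 7 genes had a count of 0 in skin A.

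Among hnRNPs, none was called lower with edgeR or with DESeq2, and 1 had an unadjusted p under 0.05 in edgeR. limma voom with quality weights called 3 lower, Hnrnpd, Hnrnph2 and Hnrnpr. Of the 20 genes, 9 were over the floor in all skin libraries, 9 in 2 of them and 2 in 1.

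The A/B group holds small proteins that bind AG-rich motifs and often promote exon skipping. Hnrnpa2b1 was at 1133, 1810 and 843 CPM in SDLN and at 926, 617 and 283 CPM in skin A, B and C. Skin B and C lay below the SDLN range and skin A inside it. The log2 fold change was -1.18 (SE 0.413, 95% interval -2.20 to -0.15), with an edgeR adjusted p of 0.0654. It was called in 0 of 15 alternatives, whose adjusted p ran from 0.0534 to 0.425.

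Hnrnpa1, the best known splicing repressor of the group, was at 292, 258 and 379 CPM in SDLN and at 6.67, 341 and 21.5 CPM in skin A, B and C. Skin B was within the SDLN range while A and C were far below it. The edgeR log2 fold change was -1.28 (SE 1.52, adjusted p = 0.681), and -4.31 (adjusted p = 0.0381) without skin B. Hnrnpa3 was at 213 to 414 CPM in SDLN and at 0.267, 135 and 237 CPM in skin, and the skin A value was 1 count. Hnrnpa0 was at 32.4 to 35.5 CPM in SDLN and at 0, 4.77 and 48.2 CPM in skin.

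Hnrnpab, Hnrnpd (AUF1) and Hnrnpdl form a related group, and Hnrnpd also binds AU-rich elements in mRNAs that turn over quickly. Hnrnpdl was at 140, 156 and 108 CPM in SDLN and at 137, 0.341 and 6.31 CPM in skin A, B and C. The value of skin B was 4 counts, 1 above the floor, and the gene was within its SDLN range in skin A. Its log2 fold change was -1.95 (SE 1.92, edgeR adjusted p = 0.584), and -5.28 (adjusted p = 0.0607) without skin A. Hnrnpab was at 39.0 to 126 CPM in SDLN and at 292, 0.0852 and 85.8 CPM in skin, with 1 count in skin B. Hnrnpd was at 33.2 to 70.9 CPM in SDLN and at 0, 50.6 and 0.332 CPM in skin. Hnrnpab was thus over the floor in skin A and C and Hnrnpd in skin B alone. Of all genes tested, 1.97% were over the floor in skin A and C only and 13.0% in skin B alone.

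Hnrnpc, which binds runs of uridine and packs nascent transcripts, was at 420, 382 and 385 CPM in SDLN and at 522, 130 and 100 CPM in skin A, B and C. Skin A was above SDLN and skin B and C below. In edgeR the log2 fold change was -0.92 (SE 0.650, adjusted p = 0.38), and -1.78 (adjusted p = 0.0117) without skin A.

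The F/H group binds runs of G. Hnrnpf was at 629, 594 and 658 CPM in SDLN and at 1218, 296 and 690 CPM in skin A, B and C. The SDLN values differed little (CV 5.09%) and the skin values lay on both sides of them. Its log2 fold change was 0.10 (SE 0.497, edgeR adjusted p = 0.953), and the sign turned under 6 alternatives. Hnrnph1 was at 111 to 133 CPM in SDLN and at 0.267, 0.681 and 388 CPM in skin, so its skin signal came from library C. Hnrnph2, its near copy on chromosome X, was at 170 to 197 CPM in SDLN and at 0, 271 and 2.55 CPM in skin, with the signal in library B. Hnrnph3, at 38.8 to 64.5 CPM in SDLN, was at 0, 99.6 and 6.64 CPM in skin. The paralogs are similar in sequence, and reads that could not be placed uniquely were not counted.

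Hnrnpk (chr13:58391142-58403343), whose KH domains bind C-rich RNA, had the most reads per length of all members in SDLN, at 349 RPKM. It was at 2164, 2270 and 2329 CPM in SDLN and at 1204, 1306 and 2184 CPM in skin A, B and C. Skin C was just inside the SDLN range and the other two were below it. It had the smallest CV of the members in skin, 34.4%, against 3.70% in SDLN. The test gave a log2 fold change of -0.45 (SE 0.454, edgeR adjusted p = 0.596), and of -1.14 (adjusted p = 0.0274) without skin C. Its exons share 330 bp with Rmi1 on the other strand, which had 0, 1192 and 0 counts in skin.

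Hnrnpl and Hnrnpll bind CA-rich RNA, and both are known for the repression of variable Ptprc exons in T cells, Hnrnpll above all in activated and memory cells. Hnrnpl was at 110, 83.1 and 95.3 CPM in SDLN and at 10.4, 63.0 and 60.8 CPM in skin A, B and C. The groups did not overlap, and the log2 fold change was -0.96 with SE 1.32 (edgeR adjusted p = 0.74). It was -0.63 without skin A and -1.51 without skin C. Hnrnpll was at 64.3 to 116 CPM in SDLN and at 0, 208 and 115 CPM in skin. In skin B it was above every SDLN library and in skin A it had no count.

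Hnrnpm, which binds GU-rich RNA, was at 506, 574 and 460 CPM in SDLN and at 117, 141 and 304 CPM in skin A, B and C. The groups did not overlap. The edgeR log2 fold change was -1.33 (SE 0.702, 95% interval -3.07 to 0.41, adjusted p = 0.219), and -2.28 (adjusted p = 0.0227) without skin C. Its exons share 1169 bp with March2 on the same strand, which had no count in skin. Hnrnpr was at 212 to 266 CPM in SDLN and at 0, 211 and 0.111 CPM in skin, so that skin B lay just below the SDLN range and the others at the floor.

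The U group binds RNA through RGG boxes and, for Hnrnpu (SAF-A), also chromatin. Hnrnpu was at 473, 256 and 554 CPM in SDLN and at 1347, 1560 and 348 CPM in skin A, B and C. Skin A and B were above every SDLN library and skin C was inside their range. The edgeR log2 fold change was 1.20 (SE 0.625, 95% interval -0.35 to 2.75, adjusted p = 0.21), and it stayed positive in 15 alternatives, from 0.64 to 1.48. Its exons share 804 bp with Cox20 on the other strand, which had 266, 877 and 414 counts in skin, far fewer than Hnrnpu. Hnrnpul1 was at 92.1 to 112 CPM in SDLN and at 0, 305 and 113 CPM in skin. Hnrnpul2 was at 14.5 to 30.2 CPM in SDLN and at 530, 137 and 0.332 CPM in skin, where 3 counts stood in library C. Its log2 fold change of 2.91 was the highest of the members, with SE 2.04 (edgeR adjusted p = 0.381).

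Which members were seen differed from one skin library to the next. All 31 were over the floor in each SDLN library. In skin A, B and C, 16, 27 and 23 members were over it (51.6%, 87.1% and 74.2%), against 20.9%, 41.8% and 36.9% of all genes tested. For SR protein genes the numbers were 5, 8 and 6 of 11 and for hnRNP genes 11, 19 and 17 of 20. The 3 libraries together showed 11 members in all of them, 10 in B and C but not A, 3 in A and B, 2 in A and C, 3 in B alone and 2 in none. Of all genes tested 12.1% were over the floor in all skin libraries and 43.3% in none. Those seen in all were Srsf2, Srsf11, Hnrnpa1, Hnrnpa2b1, Hnrnpc, Hnrnpdl, Hnrnpf, Hnrnpk, Hnrnpl, Hnrnpm and Hnrnpu. Skin A, the shallowest library, missed the most members, but Srsf6 and Hnrnpab, seen in skin A and C, were missed in skin B, the deepest of the skin libraries.

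**Figure D3:**
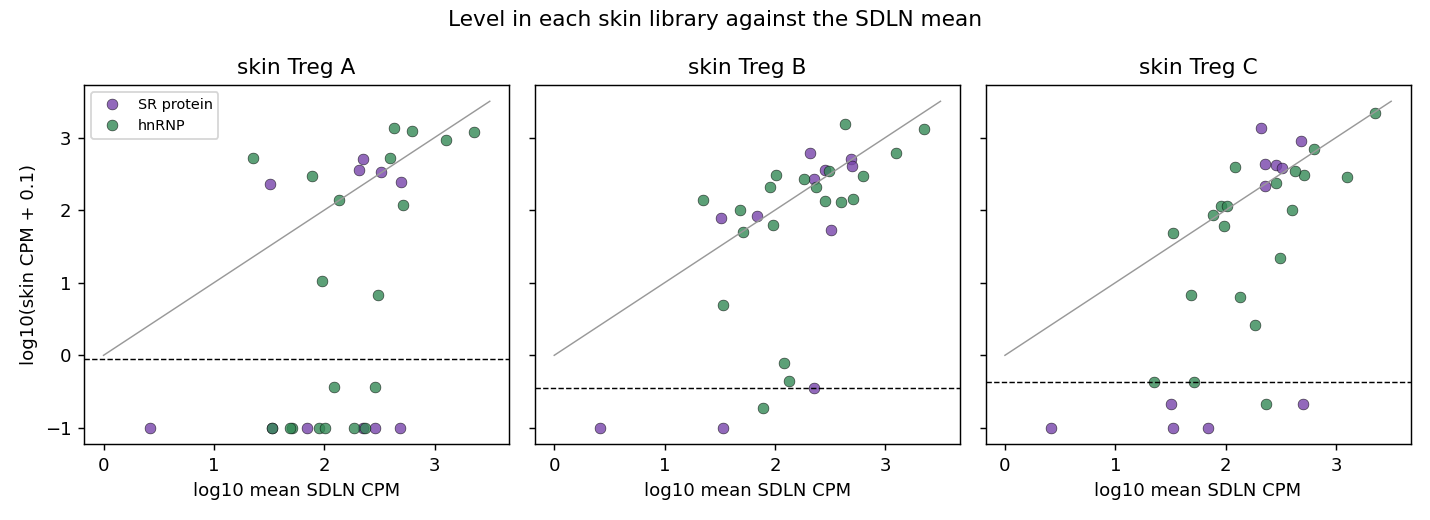
Level of the 31 members in skin A, B and C, as log10(CPM + 0.1), against log10 of the SDLN mean CPM. SR protein genes are purple and hnRNP genes green, the grey line marks equal levels and the dashed line the floor of 3 counts; most members over the floor scatter around the grey line, and 15, 4 and 8 members are at or below the floor in skin A, B and C.

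Over all genes tested, the share over the floor in each skin library was larger at higher SDLN levels. Of 10 members at 300 CPM or more in SDLN, 9, 10 and 9 were over the floor in skin A, B and C, against 74.7%, 97.0% and 95% of the 576 genes tested at that level. Of 10 members from 100 to 300 CPM, 3, 9 and 9 were over it, against 39.4%, 77.3% and 71.0% of 1760 genes. Of 11 members from 1 to 100 CPM, 4, 8 and 5 were over it, against 15%, 33.3% and 29.0% of 10186 genes. In the top group the gaps were Srsf5 in skin A and Srsf7 in skin C. Members thus sit at higher SDLN levels than most genes tested, and their shares over the floor are to be read against genes of the same level. No test was made of these shares.

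**Figure D4:**
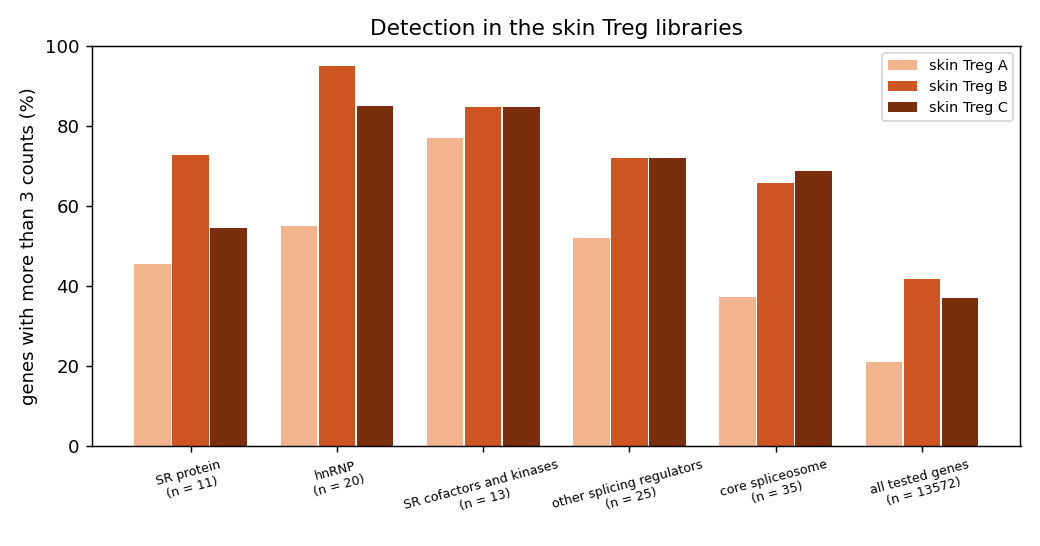
Share of genes with more than 3 counts in each skin Treg library (percent; bars, light to dark, are skin A, B and C) for the members, the 3 lists of related splicing genes and all genes tested. SR protein genes were at 45.5%, 72.7% and 54.5% and hnRNP genes at 55%, 95% and 85%, all above the bars of all genes tested.

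The 11 SR protein genes summed to 2290, 2508 and 2374 CPM in SDLN A, B and C and to 1668, 2362 and 3712 CPM in skin A, B and C. They averaged 2390 ± 110 and 2580 ± 1039 CPM (SD, n = 3). The log2 ratio of 0.11 was smaller than the spread between skin libraries, and it was -0.25 without skin C and 0.35 without skin A. The 20 hnRNP genes summed to 7035, 7724 and 7059 CPM in SDLN and to 6311, 5878 and 4995 CPM in skin. All skin sums lay below the SDLN sums, with means of 5728 ± 671 and 7273 ± 391 CPM and a log2 ratio of -0.34. The ratio lay between -0.42 and -0.23 in all alternatives. The median CV in skin was 88.0% over SR protein genes and 115% over hnRNP genes, against 21.3% and 16.3% in SDLN. Over all genes tested the medians were 168% in skin and 25.2% in SDLN.

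The make-up of each family differed from one skin library to the next. Per length, Srsf7 led the SR protein genes in each SDLN library, with 26.1%, 27.2% and 26.8% of the summed RPKM. In skin A the leader was Srsf9 with 29.6%, and in skin B and C it was Srsf2 with 34.4% and 50.7%. The share of Srsf2 was 9.42% to 15.7% in SDLN and 25.7% to 50.7% in skin. Hnrnpk led the hnRNP genes in SDLN with 25.9% to 28.2% and in skin B and C with 22.4% and 37.5%, whereas Hnrnpf led in skin A with 33.6%. As a description over the 31 members, Pearson's r of log2(CPM + 1) ran from 0.929 to 0.977 for pairs of SDLN libraries and from 0.158 to 0.307 for pairs of skin libraries. Pairs of 1 library of each tissue gave 0.368 to 0.654. Over all 13572 genes tested the ranges were 0.959 to 0.976 in SDLN and 0.393 to 0.5 in skin. The points of a library share its depth, and genes are not independent replicates.

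**Figure D5:**
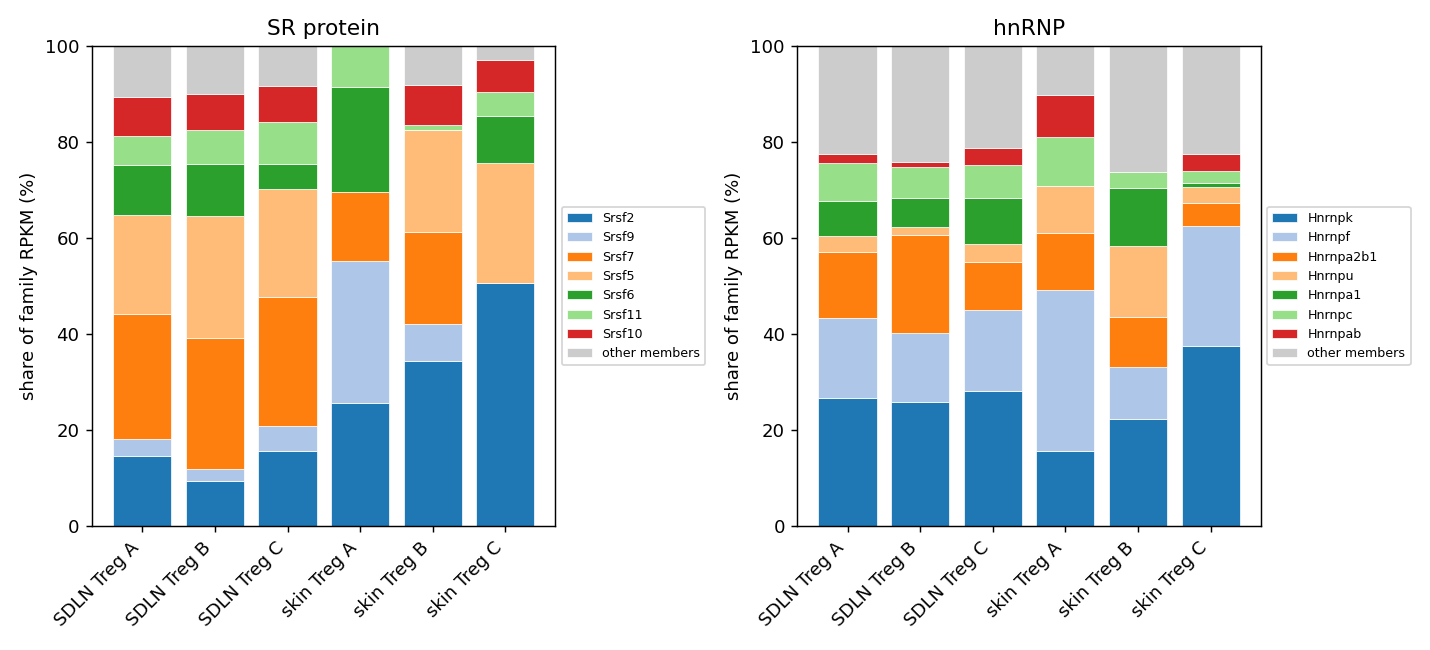
Share of each gene in the summed RPKM of its family (percent, stacked bars, 1 bar per library), with the SR protein genes on the left and the hnRNP genes on the right and the lower-ranked genes pooled in grey. The 3 SDLN bars look alike, with Srsf7 at 26.1% to 27.2%, while the skin bars differ and Srsf2 reaches 50.7% in skin C.

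Related splicing genes were counted for comparison in 3 lists of 73 genes, all of them tested. Of these 11 were called lower in skin and 0 higher. With edgeR, 12 were lower and 0 higher at an unadjusted p under 0.05, while DESeq2 called 1 higher (Snrpb2) and limma voom 0. SR cofactors and kinases, which bind or phosphorylate SR proteins, had 1 of 13 called lower, and 8 were over the floor in all skin libraries. The gene called was Clk2, a kinase of SR proteins (edgeR adjusted p = 0.00323). It was at 11.6, 12.5 and 19.3 CPM in SDLN and 0 counts in skin. Its SDLN mean was 31.3-fold higher than the mean of the skin floors. The median log2 fold change of the SR cofactors and kinases was 0.19.

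Other splicing regulators had 4 of 25 called lower, with a median log2 fold change of -0.87. Ptbp1, the polypyrimidine tract protein that represses many exons, was at 275, 269 and 223 CPM in SDLN and at 0, 0.170 and 1.33 CPM in skin A, B and C (edgeR adjusted p = 0.0189). Tia1, which helps U1 to bind weak 5′ splice sites, was at 62.3 to 124 CPM in SDLN and 0 counts in skin (edgeR adjusted p = 0.0114). Its SDLN mean was 199-fold higher than the mean of the skin floors. Rbmx was at 61.4 to 93.6 CPM in SDLN and at 1 count in skin C alone (adjusted p = 0.00915). Taf15 was at 6.15 to 17.1 CPM in SDLN and at most 0.332 CPM in skin (adjusted p = 0.00693). The call of Ptbp1 was lost without SDLN A, B or C, that of Tia1 without SDLN A or C, and that of Taf15 with counts drawn down. In this list 9 were over the floor in all skin libraries.

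Core spliceosome genes had 6 of 35 called lower, with a median log2 fold change of -1.24, and 11 over the floor in all skin libraries. The called genes with the smallest adjusted p were Prpf3 (0.0047), Prpf4 (0.00905), Sf3a2 (0.0094), Prpf8 (0.00991) and Plrg1 (0.00996) in edgeR. Prpf3 and Prpf4 belong to the U4/U6 snRNP, and were at 48.5 to 61.7 and 43.3 to 61.4 CPM in SDLN. Prpf8, the large protein at the centre of the spliceosome, was at 144 to 206 CPM in SDLN and at 0, 0.426 and 0.221 CPM in skin, and its call was lost without SDLN A or B. Sf3a2, of the U2 snRNP, was at 89.4 to 166 CPM in SDLN and at most 0.221 CPM in skin. Plrg1 was at 75.6 to 78.7 CPM in SDLN and had no count in skin. The lists together had 15.1% of their genes called lower, against 1 of 30 members and 45.3% of all genes tested. These shares were not matched for SDLN level, and no test was made of the difference between lists.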

How the data were processed

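RNA was sequenced from 6 samples, 3 skin Treg and 3 SDLN Treg. The authors trimmed paired reads with Trimmomatic 0.36, mapped them to GRCm38 with STAR 2.5.2b and counted unique exon reads per gene with featureCounts (Subread 1.5.2). The authors deposited these as unnormalized counts, 1 row per Ensembl gene. The annotation release, strand setting and handling of duplicates are not given in the sources used here. Labels call all samples batch 1. They do not state that samples of a group came from separate litters, so p-values measure the spread between these pools, part of which may be technical. No 2 libraries were identical.

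Symbols, positions and exon lengths were taken from GENCODE M21 (49056 of 49315 genes named; 24401 were at 0 in all libraries). Skin was tested against SDLN with edgeR 4.0.16 in R 4.3.3 (filterByExpr, TMM, quasi-likelihood F test with robust estimation, tissue as the only term), since the methods state no test for this comparison. Benjamini-Hochberg adjustment ran over 13572 genes, with a threshold of 0.05. Log2 fold changes are skin over SDLN, and SE was derived from the F statistic. CPM is relative to the library total, and RPKM divides it by the union exon length. limma 3.58.1 (voom) and DESeq2 1.42.0, other scalings, filters, a stricter threshold, counts drawn down to 3748669 and leaving out each library were the alternatives. A fit blocked on the column letter was added after seeing the data. Promoter windows came from RefSeq.

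The step was tested on simulated data. At a dispersion of 0.1, 96.5% of 200 genes changed by a log2 of 3 were recovered among 13330, with 7 unchanged genes called. At 2.04, the common dispersion of these data, 0% of them were recovered among 12453 genes. The simulation gave all genes in both tissues the same dispersion. In the data the median CV over all genes tested was 25.2% in SDLN and 168% in skin. The 0% therefore does not give the power for single members.

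Members, lists, tests and alternatives were chosen with earlier results of these data known. Every member is accounted for, with values per library for those called, those over 3 counts in all or in none of the skin libraries, and the 3 SR protein and 3 hnRNP genes highest in SDLN per length. Of related lists, called genes are named, at most 5 per list and direction. Values of the other members were added. 1 marker gene is not reported here.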

Additional observations from a re-analysis of the deposited data

How the results depend on the processing

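Columns carry letters and titles numbers, and nothing states that a letter marks the same mice in both tissues. The methods describe harvest of both tissues and 3 pooled samples in total, without saying whether pools of both tissues shared mice. Over 13572 genes, deviations from the group mean correlated at 0.046, -0.01 and 0.091 between the skin and SDLN libraries of letter A, B and C. Between libraries of different letters the values were -0.082 to 0.051. These correlations do not decide whether the letters are pairs. Since nothing states it, the letters were not taken as pairs. A replicate block by column letter, added after seeing the data, called 1 SR protein gene (Srsf4) and 0 hnRNP genes lower and 0 members higher, and 7 related splicing genes lower against 11, with a log2 fold change of -0.03 for Hnrnpf. SR protein genes called lower were 1, against 2 with DESeq2 (Srsf4 and Srsf12), 2 with limma voom with quality weights (Srsf4 and Srsf1), 2 with no filter on low counts (Srsf4 and Srsf12) and 0 with at least 10 counts in every library, a filter that left 2 SR protein genes and not Srsf4. DESeq2 was run without the main filter on low counts, which had left out Srsf12, and so tested 11 SR protein genes against 10. Leaving out 1 library gave 1 to 2. hnRNP genes called lower were 0, against 3 with voom and 0 to 3 when leaving out 1 library: 1 without skin A (Hnrnpc), 3 without skin B (Hnrnpa1, Hnrnpd and Hnrnpr) and 3 without skin C (Hnrnph1, Hnrnpk and Hnrnpm). Members called higher were 0, against 1 with DESeq2 (Srsf2) and 0 to 1 when leaving out 1 library, Srsf2 without skin A and Hnrnpul2 without skin C. Related splicing genes called lower were 11, against 23 with voom, 0 with at least 10 counts in every library (24 of them tested) and 7 to 19 when leaving out 1 library (7 without SDLN A, 19 without skin B and 17 without skin C). The log2 fold change of Hnrnpf was 0.10, against -0.02 with TMMwsp scaling, -0.11 under that filter, -0.04 with counts drawn down, and -0.32 to 0.43 when leaving out 1 library (-0.32 without skin A and -0.21 without skin C). That of Srsf11 was -0.36, against -1.26 to 0.11 when leaving out 1 library. Members over the floor in all skin libraries were 2 SR protein and 9 hnRNP genes, against 3 to 5 (5 without skin A, 4 without skin C) and 10 to 16 (16 without skin A) when leaving out 1 skin library. Where fewer samples or fewer genes are not the cause, the cause was not tested. The summed levels of both families moved by less than the spread between replicates under all alternatives run for them. Depth in skin A limits the floor to 0.8 CPM, and the spread between skin libraries limits what 3 against 3 libraries can show for a single member. The dispersion of 2.04 is common to all genes tested. Single members differed, with an SE of 0.413 for Hnrnpa2b1 and 2.85 for Srsf1.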
